A study of Macaca fascicularis with 11 samples.

Results

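Extraembryonic mesenchyme cells of cynomolgus monkey embryos (Macaca fascicularis) were compared between ISL1 mutants and wild type at Day 14. The cells were chosen by their own UMIs (unique molecular identifiers, each counting 1 captured transcript). For each cell the mean of ln(1 + 10000 × UMI/total) was taken over 4 sets of marker genes, and a cell was a member when its mesenchyme score (COL3A1, COL1A1, COL6A2, HGF, CCDC80, HAND2 and POSTN) was above its scores for trophoblast (CGA, XAGE3, PGF, KRT7, HSD3B1, VGLL1 and INSL4), epiblast (POU5F1, IFITM1, L1TD1, DPPA4 and DNMT3B) and endoderm (APOA1, TTR, FOXA2, SOX17, IHH and VTN), with a UMI of at least 3 of the 7 mesenchyme genes. This rule took 4091 of the 18067 Day 14 cells, in a series of 33330 cells.

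All embryos were cultured in vitro from the blastocyst stage, and their single cells were sequenced as droplet libraries of transcript 3′ ends. Both wild-type Day 14 libraries came from 2 embryos each. The ISL1 mutant library numbered 1 came from 3 embryos and the mutant library numbered 2 from 1 embryo. ISL1 encodes a LIM-homeodomain transcription factor. The mutants carry the ISL1_hypomorphic_mutant genotype: zygotes received Cas9 with a pair of guide RNAs against ISL1, so that every embryo is a mosaic of cells with different indels, most of them frameshifts. Where embryos were pooled, cells cannot be traced back to them, and the p-values below therefore measure the spread between 2 libraries a group, which may be in part technical.

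In primates the extraembryonic mesenchyme forms before and during gastrulation and lines the amnion, the yolk sac and the inside of the chorion. It makes a loose, collagen-rich matrix, contributes the connective tissue of the connecting stalk and the placental villi, and secretes growth factors towards its epithelial neighbours. Its cells are known by fibrillar collagens, by the transcription factors HAND1, HAND2 and PITX1, and by hepatocyte growth factor (HGF).

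The members numbered 158 and 350 cells in the wild-type libraries and 2510 and 1073 cells in the mutant ones. These were 4.97% (95% exact binomial interval 4.24% to 5.79%, counting error only) and 25.3% (23.0% to 27.7%) of the wild-type cells, against 26.1% (25.2% to 27.0%) and 27.6% (26.2% to 29.1%) of the mutant cells. The mutant share was 11.7 percentage points above the wild-type share, a difference that cannot reach significance with 2 libraries a group (exact permutation test, two-sided, p = 0.333, the smallest value that this design allows). It was 1.57 points without wild-type library 1 and 21.9 points without wild-type library 2. With a UMI of at least 5 mesenchyme genes required, it was 10.9 points (same permutation test, p = 0.667). Wild-type library 2 (25.1%) was then above mutant library 1 (24.4%). Wild-type library 1 stood apart from the other 3.

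**Figure D1:**
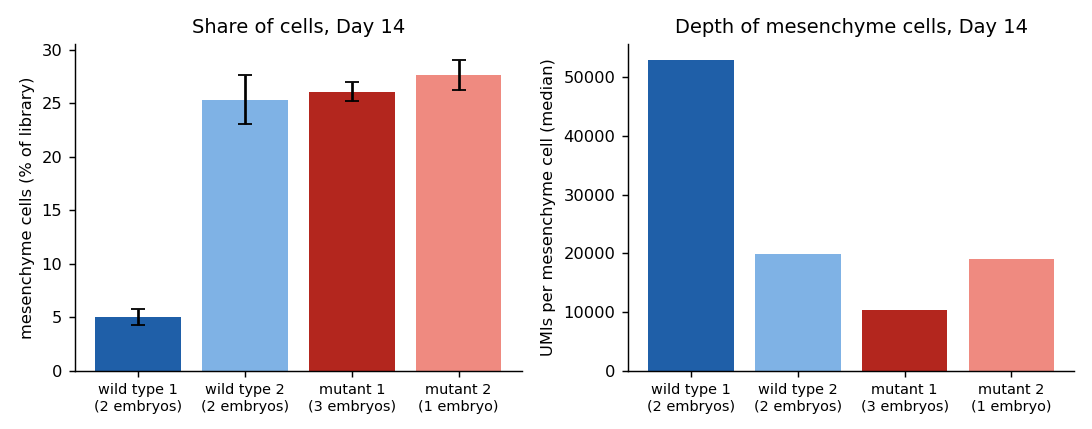
The left panel shows mesenchyme cells as a percentage of each Day 14 library (bars, with 95% exact binomial intervals), and the right panel the median UMIs per mesenchyme cell. Wild-type library 1 holds 4.97% mesenchyme cells, against 25.3% to 27.6% in the other libraries, and its cells are the deepest, with a median of 52982 UMIs.

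The same library also differed in depth. Its members had a median of 52982 UMIs, against 19943 in the other wild-type library and 10349 and 18965 in the mutant ones, and their median mesenchyme score was 1.35, against 1.85, 1.90 and 2.18. Summed over members, the libraries held 8878102 and 7605943 UMIs in wild type and 29267993 and 22369649 in mutants. With the sums thinned to the smallest one, all 12 named genes below were still called. Medians of gene lists that leaving out either wild-type library moved by over 1.5 times, or turned in sign, are given with and without it. The Day 14 libraries shared 40 cell barcodes in all, 15 of them a member in 1 library and none a member in both. A doublet caller (Scrublet) marked 1 and 10 wild-type and 106 and 1 mutant members.

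Few cells lay at the threshold of the rule. Cells with the mesenchyme score highest but a UMI of only 2 mesenchyme genes numbered 0 in both wild-type libraries and 37 and 5 in the mutant ones, with median mesenchyme scores of 0.498 and 0.42. Just inside, the cells with 3 such genes numbered 2 and 2 in wild type and 42 and 9 in mutants, with median scores of 0.33, 0.428, 0.803 and 0.559. All 7 genes had a UMI in 57.0% and 78.0% of the wild-type members and in 36.8% and 65.7% of the mutant ones.

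A wider set of genes was read as a description of the members. The study's 100 marker genes of extraembryonic mesenchyme, which it chose on the wild-type libraries of these data and which include the 7 rule genes, summed to 44252 and 48990.2 CPM in the wild-type libraries and 53598 and 70632 CPM in the mutant ones (CPM, UMIs of a gene per 1000000 of the summed UMIs), with none at 0 in any library. In trophoblast cells, taken by the same scores, they summed to 7882, 8471, 9073 and 7876 CPM. The 7 rule genes, on which members were selected to score high, made 2630 and 5378 CPM of the wild-type and 7039 and 11112 CPM of the mutant member sums. Since the list was chosen on these data and holds the rule genes, its sum cannot check the label. Endoderm cells were not compared. HAND1, which the rule did not use, stood at 382 and 528 CPM in wild-type and 279.6 and 138 CPM in mutant members, against 3.47 to 71.4 CPM in trophoblast cells of the 4 libraries.

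Trophoblast transcripts were also present in the members. The 15 listed trophoblast genes outside the rule, keratins among them, summed to 1843 and 2180.4 CPM in the wild-type libraries and 3225 and 3936 CPM in the mutant ones, where trophoblast cells held 8985 to 11645 CPM. Both mutant libraries were above both wild-type ones. The 7 trophoblast genes of the rule, on which members were selected to score low, summed to 129 and 287 CPM in the wild-type libraries and 596 and 379.8 CPM in the mutant ones, where trophoblast cells held 9228 to 17090.2 CPM. CGA, the alpha subunit of chorionic gonadotropin, gave 80.2 and 69.3 CPM in wild-type and 233 and 213 CPM in mutant members, both mutant libraries being above both wild-type ones, as they were for 23.7% of the 11952 genes tested below. In trophoblast cells of the same libraries CGA stood at 6987, 11128, 3655 and 10888 CPM. Its part in the results below was not tested in general, but trophoblast levels stand beside some of the genes that trophoblast cells also express, and a fit on members with no UMI of CGA is given where it changes a call.

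ISL1 (ENSMFAG00000035949) gave 52 and 42 UMIs in the wild-type members, or 5.86 and 5.52 CPM, and 58 and 23 UMIs in the mutant members, or 1.98 and 1.03 CPM. Both mutant libraries lay below both wild-type ones, as for 25.6% of all genes tested, with a log2 difference of -1.87 ± 0.47 (adjusted p = 0.19, edgeR), which misses the threshold of 5%. The reads come from transcript 3′ ends, outside the edited part of the gene, so that this level does not check the genotype label.

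The rule genes themselves are given as values only, since they chose the cells. COL1A1, the main chain of type I collagen, stood at 407 and 501 CPM in wild-type and 2004 and 3383 CPM in mutant members. COL3A1, the chain of type III collagen, stood at 634 and 1996 CPM against 2409.9 and 4232 CPM, and COL6A2, of type VI collagen, at 394 and 614 CPM against 1117 and 1847 CPM. For these 3 of the 7 rule genes both mutant libraries were above both wild-type ones, as for 23.7% of all genes tested below. Wild-type library 1 was the lowest for all 3. HGF went the other way, with 646 and 794 CPM in wild-type and 454 and 505 CPM in mutant members. The transcription factor HAND2 (127 and 146 against 109.5 and 166 CPM), the matrix gene CCDC80 (330.1 and 357 against 648 and 302 CPM) and periostin, POSTN (92.5 and 970.3 against 296 and 678 CPM), overlapped between the groups. The epiblast genes POU5F1 (6.08 and 1.71 against 3.31 and 2.24 CPM), L1TD1 (18.1 and 22.6 against 18.9 and 10.8 CPM), DPPA4 (33.2 and 36.7 against 42.2 and 33.8 CPM) and IFITM1 (26.5 and 6.97 against 24.5 and 41.1 CPM) also overlapped, while the DNA methyltransferase DNMT3B (17.6 and 18.4 against 12.6 and 13.8 CPM) was lower in both mutant libraries. APOA1, an apolipoprotein of endoderm, was at 9.69 and 48.4 CPM in wild-type and 9.53 and 3.44 CPM in mutant members, highest in wild-type library 2 and lower in both mutant libraries. The other endoderm genes were TTR (0.676 and 0.92 against 3.9 and 0.626 CPM), VTN (21.3 and 66.9 against 84.5 and 80.1 CPM), SOX17 (0.338 and 0 against 0.957 and 0.805 CPM), FOXA2 (0 and 1 UMI against 4 and 0) and IHH (0.113 and 0.131 against 0.205 and 0 CPM). Of the trophoblast genes besides CGA, XAGE3 stood at 9.12 and 98.9 against 182 and 60.3 CPM, PGF at 18.4 and 64.4 against 41.4 and 79.1 CPM, and KRT7 at 5.18 and 5.39 against 22.1 and 4.2 CPM. HSD3B1 was at 4.05 and 10.1 against 12.9 and 4.56 CPM, VGLL1 at 4.62 and 34.4 against 33.9 and 8.58 CPM and INSL4 at 7.88 and 4.47 against 70.9 and 10.6 CPM.

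Which genes differed between mutant and wild-type mesenchyme was asked over all 11952 genes that passed the filter on low counts. Genes near 0 in wild type, among them DLK1, LOX, SPON2, COL11A1 and ENO2, passed that filter only through the mutant libraries. For such genes a rise was the only difference that could be seen. At an adjusted p under 5% (edgeR quasi-likelihood test on the UMIs summed per library, two-sided, Benjamini-Hochberg adjustment over all genes), 28 genes rose in the mutants (0.234% of those tested) and 1 fell (0.00837%), together 0.243%. Adjusted p-values below are from this edgeR test where no other tool is named, fold changes are on the log2 scale, and ± gives the standard error of the fit. At 1% none passed in edgeR, where 1728 genes had an unadjusted p under 0.05. In all 29 the libraries of the groups did not overlap, a pattern that selection by p favours. Among all genes tested both mutant libraries were above in 23.7% and below in 25.6%. DESeq2 called 432 genes, 360 higher (3.01%) and 72 lower (0.602%) in the mutants, among them all 29, and edgeR with the labels' batch number as a replicate block called 121, 111 higher (0.929%) and 10 lower (0.0837%), again with all 29. Without one of the libraries in turn edgeR called 31 to 64 genes. Only 867 of the tested genes could be paired with a symbol, 12 of the 29 called genes among them. Symbols came from the study's own gene tables, which include genes it found changed between these mutant and wild-type embryos. The gene lists below hold only genes with a symbol and were chosen with earlier results of these data known. The shares over all genes are therefore not a matched comparison for them, and their counts are a description.

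**Figure D2:**
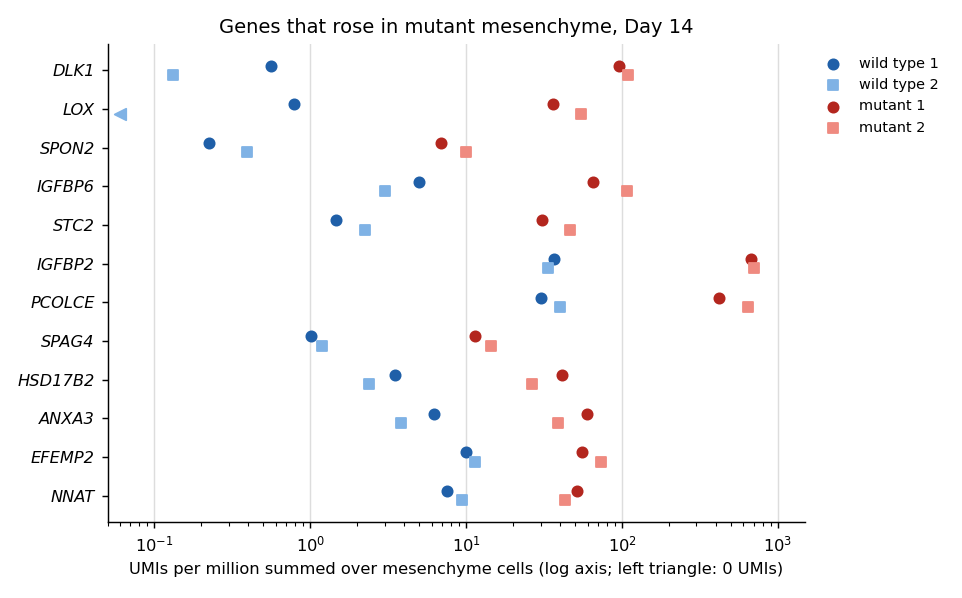
Each row is a gene that rose in mutant mesenchyme and has a symbol, and each point 1 library's CPM summed over its mesenchyme cells, on a log axis (blue, wild type; red, mutant; a left-pointing triangle marks 0 UMIs). In all 12 rows both mutant libraries lie above both wild-type ones, a condition for being named here that 23.7% of all genes tested meet. The margin is widest for DLK1.

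Secreted regulators of growth included the largest named rise. DLK1 (ENSMFAG00000035336), an imprinted, membrane-anchored and shed Notch-like ligand that restrains the differentiation of mesenchymal cells, gave 5 and 1 UMIs in wild-type and 2794 and 2451 UMIs in mutant members. These are 0.563 and 0.131 CPM against 95.5 and 109.6 CPM, a log2 difference of 8.18 ± 0.55 (adjusted p = 0.0245, edgeR). The gene was close to absent in both wild-type libraries and present in both mutant ones. With every cell thinned to 5000 UMIs, 0% of the members had a DLK1 UMI in both wild-type libraries (0 of 158 cells, which allows up to 1.90%, and 0 of 350, which allows up to 0.857%), against 17.7% and 21.9% in the mutants, where 225 and 3 shallower members were left out. Unthinned, the shares were 2.53% and 0.286% against 24% and 37.5%. Trophoblast cells, thinned alike, held a DLK1 UMI in 0.0421% and 0% of the wild-type and 1.59% and 2.67% of the mutant cells, whose median depths before thinning were 48893, 27627.5, 11607 and 28138 UMIs.

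Both called IGF-binding proteins rose. IGFBP2 (ENSMFAG00000040045), which binds insulin-like growth factors in the extracellular space, stood at 36.5 and 33.5 CPM in wild-type and 668 and 697 CPM in mutant members, a log2 difference of 4.34 ± 0.31 (adjusted p = 0.0245, edgeR). Its 2 wild-type and its 2 mutant libraries lay close together. After thinning, 11.4% and 11.7% of the wild-type and 50.2% and 67.4% of the mutant members held an IGFBP2 UMI, against 1.6% to 4.92% of trophoblast cells over the 4 libraries (unthinned, 42.4% and 27.7% against 59.1% and 84.8% of members). IGFBP6 (ENSMFAG00000000085), a binding protein with preference for IGF-II, stood at 4.96 and 3.02 CPM in wild-type and 64.7 and 108 CPM in mutant members, with a log2 difference of 4.49 ± 0.48 (adjusted p = 0.0358, edgeR). The other 3 listed binding proteins with values here did not pass the test. IGFBP3 stood at 828 and 728 CPM against 1534 and 4435 CPM (2.03 ± 0.58, adjusted p = 0.227). IGFBP4 stood at 26.8 and 15.1 against 28.8 and 35.4 CPM (0.66 ± 0.39, adjusted p = 0.47), and IGFBP5 at 2.93 and 2.63 against 50.4 and 12 CPM (3.50 ± 0.68, adjusted p = 0.125). In these 5 both mutant libraries were above both wild-type ones, a pattern that 23.7% of all genes tested showed.

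STC2 (ENSMFAG00000042809), a secreted glycoprotein that inhibits the protease which frees IGFs from IGFBP4, stood at 1.46 and 2.24 CPM in wild-type and 30.9 and 46.6 CPM in mutant members, a log2 difference of 4.48 ± 0.41 (adjusted p = 0.0358, edgeR). Trophoblast cells expressed it too, at 22.4 and 20.7 CPM in wild-type and 29.8 and 16.4 CPM in mutant trophoblast cells. Its paralogue STC1 was at 1.13 and 16 CPM against 27.7 and 48.5 CPM and did not pass (2.31 ± 0.93, adjusted p = 0.335), the wild-type libraries themselves standing apart. Over the list of secreted factors, 16 genes besides the rule genes were tested, of 29 listed and 23 with an identifier. Of these, 4 rose (DLK1, IGFBP2, IGFBP6 and STC2) and none fell, where 0.234% of all genes and 12 of the 867 with a symbol rose. In 12 of the 16 both mutant libraries were above both wild-type ones (23.7% of all genes did). The list was chosen with earlier results of these data known, so these counts are a description only. The median log2 fold change was 2.44 (3.39 without wild-type library 1), against 0.04 over all genes tested, and it was 2.09 in trophoblast cells of the same libraries. The low counts of EPO (0 and 1 UMIs against 24 and 79), GDNF (4 and 2 against 80 and 34) and FGF11 (1 and 0 against 26 and 58) stood higher in mutants and did not pass the test. These 3 genes and DLK1 passed the low-count filter only through the mutant libraries, so that only a rise could be seen. They are counted among the 12 and in the median.

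Of the lists of collagen processing and other matrix genes, 4 genes rose. PCOLCE (ENSMFAG00000038601), which speeds the cleavage of the procollagen C-propeptide, stood at 30.2 and 39.8 CPM in wild-type and 419.7 and 641 CPM in mutant members, with a log2 difference of 4.01 ± 0.37 (adjusted p = 0.0358, edgeR). The thinned share of members with a PCOLCE UMI was 13.3% and 16.3% in wild type and 60.5% and 86.6% in mutants, where trophoblast cells ranged from 0.231% to 3.76% (unthinned, 55.7% and 42.9% against 73.5% and 97.8% of members). Both mutant libraries were far above both wild-type ones on either measure, an order that naming required in CPM. LOX (ENSMFAG00000043699), the enzyme that cross-links collagen and elastin, gave 7 and 0 UMIs in wild-type and 1057 and 1210 UMIs in mutant members. That is 0.788 and 0 CPM (0 UMIs allow up to 0.394 CPM) against 36.1 and 54.1 CPM, a log2 difference of 6.79 ± 0.82 (adjusted p = 0.047, edgeR). Without wild-type library 2 the log2 difference was 5.81. Without wild-type library 1 the remaining wild-type library has no LOX UMI, and LOX was at least 114-fold higher in the mutants with that library set to 3 counts. The fit without it (adjusted p = 0.0229, edgeR) takes its spread from the mutant libraries, the lone wild-type library being assumed to vary like them.

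EFEMP2 (ENSMFAG00000033077), a fibulin that brings LOX to elastic fibres, stood at 9.91 and 11.3 CPM in wild-type and 55.3 and 72.7 CPM in mutant members, with a log2 difference of 2.67 ± 0.31 (adjusted p = 0.047, edgeR). SPON2 (ENSMFAG00000035173), a secreted matrix protein of the spondin family, gave 2 and 3 UMIs in wild-type and 202 and 222 in mutant members, or 0.225 and 0.394 against 6.9 and 9.92 CPM, a log2 difference of 4.83 ± 0.57 (adjusted p = 0.047, edgeR). Both genes were low in wild type. Their groups did not overlap, which was a condition for being named here. Of 13 tested genes of collagen processing (16 listed), 2 rose (0.234% of all genes did), none fell and 10 had both mutant libraries above (23.7% of all genes did), with a median log2 fold change of 0.86 (0.55 without wild-type library 1). P4HA2, a collagen prolyl hydroxylase subunit, stood at 23.2 and 21.2 CPM against 118 and 282 CPM (3.26 ± 0.50, adjusted p = 0.0723), and LOXL2, a relative of LOX, at 32.2 and 54.3 against 96.9 and 125 CPM (1.45 ± 0.32, adjusted p = 0.158). The chaperone SERPINH1 (802 and 784 against 902 and 817 CPM) and the prolyl isomerase PPIB (1305 and 1248 against 992 and 1112 CPM) had log2 fold changes of 0.17 and -0.21.

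The structural collagens did not pass in edgeR. Besides the 3 of the rule, 8 collagen genes were tested, and 6 of them had both mutant libraries above both wild-type ones (23.7% of all genes did), with a median log2 fold change of 1.02 (all between 0.78 and 6.71; the smallest adjusted p was 0.119). The median was 0.62 without wild-type library 1 and 1.50 without wild-type library 2. COL11A1, a minor fibrillar collagen that sets fibril diameter, gave 1 and 0 UMIs in wild-type and 80 and 238 in mutant members (6.71 ± 1.26, adjusted p = 0.119). It passed the low-count filter only through the mutant libraries, so that only a rise could be seen. COL6A1 stood at 121 and 191 against 236 and 372 CPM (1.06 ± 0.36, adjusted p = 0.284). COL18A1 stood at 85.7 and 113 against 129 and 203 CPM (0.83 ± 0.33, adjusted p = 0.33), and the basement membrane chains COL4A1 and COL4A2 at 172 and 580.2 against 479 and 791 CPM and 280.2 and 456 against 525 and 666 CPM. Here too wild-type library 1 was the lowest library for COL4A1, COL4A2, COL6A1 and COL18A1. DESeq2 called 1 of the 8 as higher, COL11A1, where it called 3.01% of all genes as higher.

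Among 25 other matrix genes tested, EFEMP2 and SPON2 rose (0.234% of all genes did), none fell, 15 had both mutant libraries above and 2 both below (23.7% and 25.6% of all genes did), and the median log2 fold change was 0.91. SPARC, a collagen-binding matricellular protein, stood at 175 and 389.6 against 789 and 1223 CPM (1.94 ± 0.45, adjusted p = 0.167), and ECM1 at 9.8 and 8.02 against 58.6 and 26.2 CPM (2.28 ± 0.42, adjusted p = 0.116), a gene that trophoblast cells hold at 108 to 749 CPM. Fibronectin, FN1, was at 640.1 and 897 against 1141 and 2605 CPM (1.39 ± 0.49, adjusted p = 0.291), and the proteoglycan LUM at 42 and 675 against 1044 and 1257 CPM (1.83 ± 1.02, adjusted p = 0.454), wild-type library 1 being far below the other 3. CTHRC1 (559 and 615 against 475 and 547 CPM) and SBSPON (189 and 117 against 81.3 and 66.7 CPM) were the 2 with both mutant libraries below.

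Of the other 4 named genes that rose, NNAT (ENSMFAG00000033180), an imprinted membrane proteolipid, stood at 7.55 and 9.33 CPM in wild-type and 51.2 and 43.1 CPM in mutant members, a log2 difference of 2.55 ± 0.27 (adjusted p = 0.0358, edgeR). SPAG4 (ENSMFAG00000033014), a SUN-domain protein of the nuclear envelope, gave 9 and 9 UMIs in wild-type and 332 and 321 UMIs in mutant members, or 1.01 and 1.18 against 11.3 and 14.3 CPM, with a log2 difference of 3.61 ± 0.41 (adjusted p = 0.047, edgeR). In neither gene did the libraries of the groups overlap, a condition for being named here that 23.7% of all genes tested met. SPAG4 was also found in trophoblast cells. After thinning, 0.633% and 0.857% of the wild-type and 4.55% and 6.82% of the mutant members held a SPAG4 UMI. In trophoblast cells these shares were 1.9% and 1.5% in wild type and 17.2% and 20.0% in mutants.

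Like SPAG4, the remaining pair is also expressed by trophoblast. HSD17B2 (ENSMFAG00000002586), which inactivates oestradiol and testosterone, stood at 3.49 and 2.37 CPM in wild-type and 41.4 and 26.3 CPM in mutant members, a log2 difference of 3.56 ± 0.39 (adjusted p = 0.039, edgeR). Trophoblast cells of the same libraries held more, 379 and 40.8 CPM in wild-type and 360.4 and 273 CPM in mutant trophoblast cells. ANXA3 (ENSMFAG00000003067), a calcium-dependent phospholipid-binding annexin, stood at 6.2 and 3.81 CPM in wild-type and 59.8 and 38.6 CPM in mutant members, with a log2 difference of 3.32 ± 0.39 (adjusted p = 0.047, edgeR), and at 46.4 and 35.3 CPM in wild-type and 68.4 and 53 CPM in mutant trophoblast cells. A fit on the members with no UMI of CGA (146 and 247 wild-type and 2270 and 938 mutant cells) was chosen after the data were seen. CGA was counted there after free RNA removal, which was itself estimated from choriogonadotropin. Whether trophoblast RNA remained in these cells was not tested. In this fit HSD17B2 differed by 4.16 ± 0.35 (adjusted p = 0.0401 in edgeR), and ANXA3 by 3.23 ± 0.36 (adjusted p = 0.052 in edgeR), just short of a call. LOX (6.51), SPON2 (5.25), SPAG4 (3.62) and EFEMP2 (2.67) missed it there at the same adjusted p, with log2 differences close to those over all members, and the other 6 passed.

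The 12 named genes kept their direction in all 15 alternative fits. Naming required both mutant libraries above both wild-type ones, which favours this, so the kept direction is no separate support. DLK1 passed in all 15, IGFBP2 in 14, IGFBP6, STC2 and PCOLCE in 13, HSD17B2 in 12, LOX and NNAT in 11, ANXA3 and EFEMP2 in 10, SPON2 in 9 and SPAG4 in 7. With DESeq2 size factors in edgeR the calls of LOX, SPON2, SPAG4, ANXA3 and EFEMP2 were lost. On the matrix before free RNA removal that of HSD17B2 was lost (adjusted p = 0.0589), and with at least 5 mesenchyme genes those of LOX and SPAG4. A score margin of 0.5 lost that of SPAG4. With the Day 12 libraries in the fit DLK1 and HSD17B2 passed and the other 10 did not, at adjusted p up to 0.177. Without wild-type library 1 the calls of SPON2, STC2, PCOLCE, SPAG4, EFEMP2 and NNAT were lost, at adjusted p from 0.0514 to 0.0692. Without wild-type library 2 those of SPON2, IGFBP6, SPAG4, HSD17B2, ANXA3, EFEMP2 and NNAT were lost (0.0596 to 0.0824). Without mutant library 1 the calls of HSD17B2, ANXA3 and NNAT were lost (0.0522 to 0.0579), and without mutant library 2 those of SPON2 and SPAG4 (0.0707 and 0.0628).

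Of the 17 called genes without a symbol, 16 rose. ENSMFAG00000028216 gave 0 UMIs in both wild-type libraries and 4306 and 1340 UMIs in the mutant ones, 147 and 59.9 CPM, at least 283-fold higher when each wild-type library is set to 3 counts (adjusted p = 0.0358, edgeR). It also appeared in mutant trophoblast cells, at 12.5 and 10.3 CPM. ENSMFAG00000001029 was the 1 gene that fell, from 13.2 and 31.4 CPM in wild-type to 0.342 and 0.492 CPM in mutant members, a log2 difference of -5.64 ± 0.55 (adjusted p = 0.0358, edgeR). Among genes with a symbol the largest differences downwards just missed the threshold and were picked after their values were seen. DMRTB1, a DM-domain transcription factor, stood at 70.2 and 78.2 CPM in wild-type and 3.55 and 0.671 CPM in mutant members (-5.08 ± 0.69, adjusted p = 0.0533), and the fatty acid-binding protein FABP5 at 19.9 and 9.47 against 0.82 and 0.805 CPM (-4.14 ± 0.54, adjusted p = 0.0524). Trophoblast cells showed the same order for both, with 85.5 and 73.6 CPM in wild-type and 2.61 and 1.53 CPM in mutant trophoblast cells for DMRTB1, and 24 and 18.6 CPM in wild-type and 2.52 and 1.39 CPM in mutant trophoblast cells for FABP5.

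**Figure D3:**
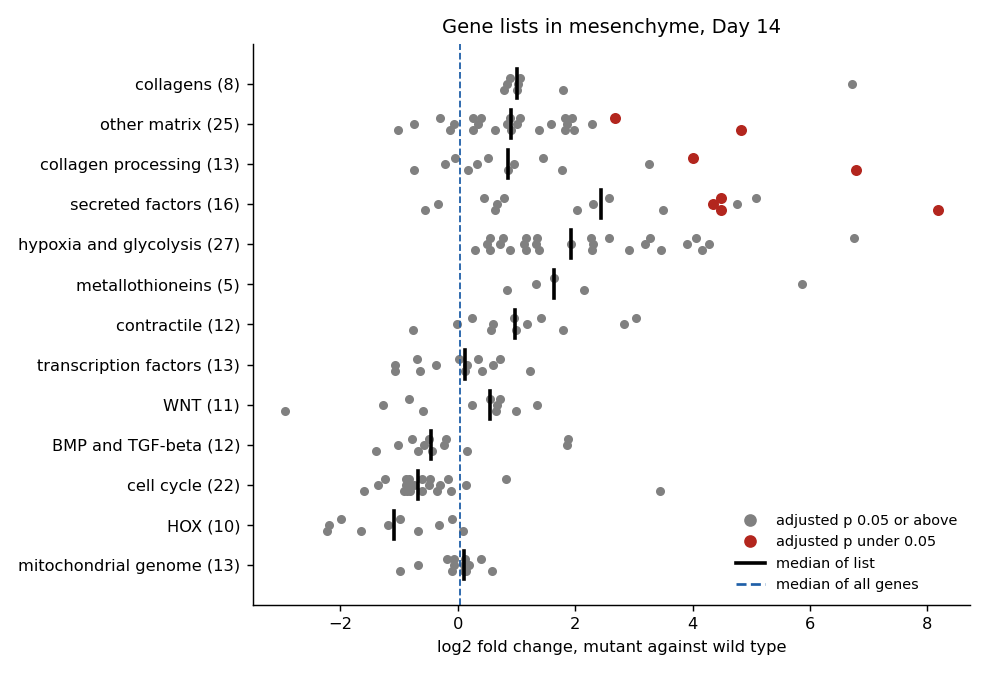
Each point is the log2 fold change (mutant against wild type, mesenchyme cells, Day 14) of 1 gene of a list, with the number of genes counted in brackets, rule genes left out. Black bars are list medians and the dashed line the median of all genes tested, 0.04; red points passed the test, 4 of them secreted factors and 2 each of other matrix and collagen processing.

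Genes of glycolysis and the response to low oxygen stood higher in mutant mesenchyme without passing the edgeR test one by one. This response is run by hypoxia-inducible factors, which raise glucose transporters, glycolytic enzymes and regulators of mitochondrial turnover when oxygen falls. All 27 tested genes of the list had a log2 fold change above 0 (from 0.29 to 6.75), with a median of 1.93 (1.79 without wild-type library 1 and 1.77 without wild-type library 2). In 23 of them both mutant libraries were above both wild-type ones, against 23.7% of all genes. The list was chosen with earlier results of these data known and holds only genes with a symbol. These counts are therefore a description, and all genes are not a matched comparison. None passed in edgeR, where the replicate block gave 4 as higher (0.929% of all genes), while DESeq2 called 15 as higher and none as lower, where it called 3.01% of all genes as higher. The list summed to 12428 and 9403 CPM in the wild-type libraries and 14872 and 23429.5 CPM in the mutant ones. In trophoblast cells it summed to 10174 and 7619 CPM in wild type and 12681 and 13609 CPM in mutants, also higher in both mutant libraries.

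ENO2, a neuronal-type enolase, gave 1 and 3 UMIs in wild-type and 351 and 859 UMIs in mutant members (6.75 ± 0.91, adjusted p = 0.0533). NDRG1, a stress-responsive gene of differentiation, stood at 4.28 and 7.63 CPM against 50.6 and 114 CPM (3.90 ± 0.53, adjusted p = 0.0539). DDIT4, an inhibitor of mTORC1, stood at 23.1 and 15.5 CPM against 158 and 493 CPM (4.16 ± 0.65, adjusted p = 0.0804). In these 3 genes mutant library 2, from 1 embryo, was above mutant library 1. ADM, a vasodilator peptide, was at 2.37 and 1.45 against 11.4 and 16.4 CPM (2.91 ± 0.46, adjusted p = 0.0825). BNIP3, a mitophagy receptor, stood at 199 and 200.2 against 919 and 2697 CPM (3.27 ± 0.59, adjusted p = 0.114), and PFKFB4, a regulator of glycolytic flux, at 2.14 and 1.84 against 15.5 and 47.1 CPM (4.06 ± 0.66, adjusted p = 0.0873). The smallest differences were those of the main glycolytic enzymes, among them GAPDH with 4396 and 2566 against 4103 and 5707 CPM and PKM with 1092 and 783 against 1062 and 1150.4 CPM, and both overlapped between the groups. In trophoblast cells of the same libraries the median of the list was 0.69.

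**Figure D4:**
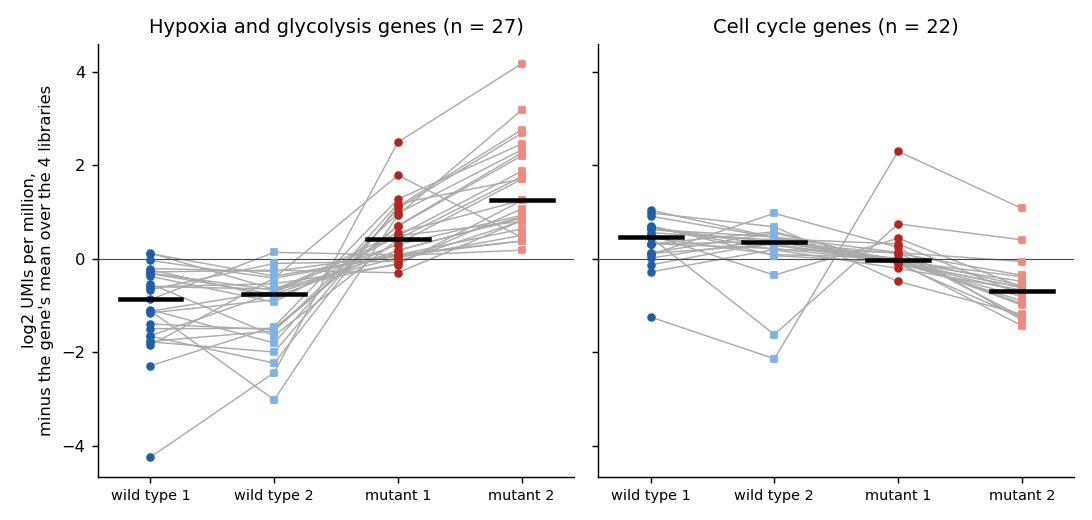
Each point is a gene's log2 CPM in 1 library's mesenchyme cells, minus its mean over the 4 libraries; grey lines join the same gene and black bars are medians. The median of the 27 hypoxia and glycolysis genes is highest in mutant library 2, and in mutant library 1 it is above those of the wild-type libraries, with 4 genes overlapping between the groups, and most of the 22 cell cycle genes stand lowest in mutant library 2, with CCND2 the point highest in mutant library 1.

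Most proliferation genes stood lower in the mutants, again without a call in edgeR. DESeq2 called PTTG1 as lower (0.602% of all genes) and CCND2 as higher (3.01%), and the replicate block called CCND2 as higher (0.929%). Of 22 cell cycle genes tested, 15 had both mutant libraries below both wild-type ones, where 25.6% of all genes did, and 1 had both above. The median log2 fold change was -0.68 (-0.52 without wild-type library 1), and mutant library 2 was the lower of the mutants for all 22. The list summed to 4082 and 3409 CPM in wild-type and 3425 and 2245 CPM in mutant members. In trophoblast cells it summed to 4388 and 4368 CPM in wild type and 3424 and 3127 CPM in mutants, also lower in both mutant libraries. PTTG1, securin of sister chromatid separation, stood at 1131 and 921 CPM in wild-type and 409.7 and 252 CPM in mutant members (-1.60 ± 0.35, edgeR adjusted p = 0.146; DESeq2 adjusted p = 0.000449). MKI67, a marker of cycling cells, was at 157 and 129.9 against 101 and 51 CPM (-0.89 ± 0.35, adjusted p = 0.33). The kinetochore gene SKA1 stood at 58.5 and 39 against 27.1 and 10.6 CPM (-1.36 ± 0.47, adjusted p = 0.29), and the DNA glycosylase NEIL3 at 24.6 and 17.9 against 12.1 and 5.45 CPM (-1.25 ± 0.42, adjusted p = 0.286). CCND2, a D-type cyclin that acts at entry into the cycle, was the exception, with 39.5 and 21.3 CPM in wild-type and 461 and 198 CPM in mutant members (3.45 ± 0.52, edgeR adjusted p = 0.0709; DESeq2 adjusted p = 1.9e-09; replicate block adjusted p = 0.0123).

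Positional and early mesodermal genes gave no call in edgeR, and DESeq2 called HOXB9 and CDX2 as lower, where it called 0.602% of all genes. Of 39 HOX genes listed, 15 had an identifier and 10 passed the filter on low counts, and 5 of the 10 had both mutant libraries below (25.6% of all genes did), none above, and the median log2 fold change was -1.09 (-1.49 without wild-type library 1 and -0.37 without wild-type library 2). HOXB9 gave 37 and 67 UMIs in wild-type and 46 and 23 in mutant members, or 4.17 and 8.81 against 1.57 and 1.03 CPM (-2.23 ± 0.50, adjusted p = 0.158). HOXB8 was at 3.94 and 4.6 against 1.3 and 0.76 CPM (-1.98 ± 0.49, adjusted p = 0.181), while HOXA10 (94.3 and 93.9 against 66 and 76.9 CPM) and HOXA11 (46.7 and 38.1 against 36.6 and 49.7 CPM) had log2 fold changes of -0.33 and 0.09. CDX2, a caudal homeobox gene of posterior mesoderm and of early trophectoderm, stood at 8.45 and 26.8 CPM in wild-type and 2.53 and 0.76 CPM in mutant members (-3.32 ± 0.70, edgeR adjusted p = 0.135; DESeq2 adjusted p = 0.000123). Both mutant libraries were below both wild-type ones, as for 25.6% of all genes, and trophoblast cells held at most 0.416 CPM. EVX1, a gene of the primitive streak, gave 18 and 12 UMIs against 16 and 0, MIXL1 11 and 3 against 78 and 6, and MESP1 16 and 6 against 31 and 20 UMIs.

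The transcription factors that define mesenchyme gave no call in edgeR or DESeq2. Besides HAND2, 13 were tested, 2 above and 4 below in both mutant libraries (23.7% and 25.6% of all genes), and a median log2 fold change of 0.12 (-0.09 without wild-type library 1 and 0.35 without wild-type library 2). HAND1 had a log2 fold change of -1.07 ± 0.36 (adjusted p = 0.284) on the levels given above. SALL1 stood at 4.62 and 6.44 against 2.53 and 2.46 CPM (-1.07 ± 0.39, adjusted p = 0.307). IRX3 stood at 2.82 and 2.1 against 4.72 and 6.35 CPM (1.22 ± 0.45, adjusted p = 0.306), and SNAI2, a repressor of epithelial genes, at 88 and 74.4 against 149 and 110.0 CPM (0.72 ± 0.27, adjusted p = 0.317). The study's own mesenchyme list, leaving out the 7 rule genes, had 93 genes tested and none called in edgeR. DESeq2 called 4 as higher and 3 as lower, where it called 3.01% and 0.602% of all genes. In both mutant libraries 26 were above and 27 below, near the 23.7% and 25.6% of all genes. The median was 0.04 (0.01 without wild-type library 1 and 0.13 without wild-type library 2).

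Signalling genes gave no call in either tool. Of 12 BMP and TGF-beta genes tested, 2 were above and 4 below in both mutant libraries, near the 23.7% and 25.6% of all genes, with a median of -0.47 that turned to 0.28 without wild-type library 1 and was -0.73 without wild-type library 2. MSX2, a BMP target, stood at 10.5 and 19.2 against 6.49 and 4.16 CPM (-1.40 ± 0.38, adjusted p = 0.21). TGFB1 was at 60.3 and 9.6 against 114 and 141 CPM and its target TGFBI at 133 and 38.3 against 221 and 383 CPM, wild-type library 2 being the lowest for both. Of 11 WNT genes, 3 were above and 3 below, again near those shares, with a median of 0.55 (0.21 without wild-type library 1). WNT2, a ligand of placental mesenchyme, stood at 138 and 145 against 89 and 64.7 CPM (-0.83 ± 0.25, adjusted p = 0.248), the secreted inhibitor SFRP2 at 6.42 and 1.05 against 0.649 and 0.313 CPM (-2.94 ± 0.94, adjusted p = 0.262), and RSPO3, which amplifies WNT signals, at 285 and 66.8 against 85.9 and 59.1 CPM, overlapping between the groups.

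Among contractile genes, TPM1, a tropomyosin of actin filaments, came nearest to the threshold, with 666 and 659 CPM in wild-type and 4129 and 4823 CPM in mutant members (2.82 ± 0.37, edgeR adjusted p = 0.0524; DESeq2 adjusted p = 3e-17). Its wild-type and its mutant libraries each lay close together. ACTC1, cardiac actin, was at 5.41 and 2.63 against 49.3 and 16.9 CPM (3.04 ± 0.60, adjusted p = 0.125), and TAGLN, an actin-binding protein of smooth muscle, at 788 and 327 against 2692 and 1186 CPM (1.80 ± 0.58, adjusted p = 0.268). Over the 12 contractile genes the median was 0.98 (1.97 without wild-type library 1), with 5 above and 2 below in both mutant libraries, against 23.7% and 25.6% of all genes, and DESeq2 called 3 as higher (3.01% of all genes). Trophoblast cells held 1427 to 2461 CPM of the 12 genes, against 2276 to 8638 CPM in the members. The metal-binding metallothioneins MT1X (28.2 and 7.1 against 335 and 1644 CPM; 5.87 ± 1.09, adjusted p = 0.118) and MT3 (126 and 61.4 against 495 and 322 CPM; 2.14 ± 0.45, adjusted p = 0.131) were higher in both mutant libraries. All 5 listed metallothioneins were tested, and 3 had both mutant libraries above, against 23.7% of all genes. The median was 1.63, and 2.86 without wild-type library 1. None was called in edgeR, 2 in DESeq2 (3.01% of all genes were called higher) and 1 with the replicate block (0.929%). Since such genes are near-identical copies their split between members is uncertain.

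Measures of stress and of library quality were mixed. FOS, an immediate early gene, stood at 198 and 177 against 596 and 888 CPM (2.06 ± 0.35, adjusted p = 0.103), and 2 of 5 immediate early genes were above in both mutant libraries (median 0.90, and 1.98 without wild-type library 1 and 0.28 without wild-type library 2). These and the following counts of genes without overlap stand against 23.7% above and 25.6% below among all genes. Of 7 genes of endoplasmic reticulum stress 4 were above and 2 below (median 0.80), led by HERPUD1 with 40.4 and 30.9 against 88.9 and 89.2 CPM (1.37 ± 0.29, adjusted p = 0.139). The 13 genes of the mitochondrial genome summed to 22950.3 and 67812 CPM in the wild-type libraries and 51223 and 34445 CPM in the mutant ones, so that the wild-type libraries bracketed the mutant ones, and none of the 13 was free of overlap (median 0.10, and -0.62 without wild-type library 1 and 1.26 without wild-type library 2). Of 7 interferon-related genes 2 were above, near that share (median 0.67), BST2 with 37.3 and 29.8 against 92.4 and 329 CPM (2.74 ± 0.63, adjusted p = 0.167). None of these lists held a call in edgeR, and DESeq2 called 1 gene as higher in each of the immediate early, endoplasmic reticulum and interferon lists, where it called 3.01% of all genes.

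Markers of other cell types that the members could hold were examined the same way. Of 14 trophoblast genes outside the rule, 4 were above, near the 23.7% of all genes, and none below in both mutant libraries (median 0.88, 0.28 without wild-type library 1 and 1.77 without wild-type library 2). None was called in edgeR. DESeq2 and the replicate block each called 1 as higher, where they called 3.01% and 0.929% of all genes as higher. LAIR2, a gene of invasive trophoblast, was at 4.28 and 1.71 against 84.8 and 10.4 CPM (3.96 ± 1.00, adjusted p = 0.19), where trophoblast cells held 415 to 1606 CPM, and mutant library 1 was far above the rest. Endothelial genes (8 tested, 2 above, again near that share, none below, median 0.39, and 1.55 without wild-type library 1) were led by LDB2, with 2.03 and 2.89 against 5.23 and 18.2 CPM (2.36 ± 0.68, adjusted p = 0.233). Of the 5 endoderm genes tested outside the rule, 1 was above and 2 below in both mutant libraries (23.7% and 25.6% of all genes). DESeq2 called 1 endothelial and 1 endoderm gene as higher and 1 epiblast gene as lower, where it called 3.01% and 0.602% of all genes. APOA2, an apolipoprotein, gave 12 and 5 UMIs in wild-type and 3 and 0 UMIs in mutant members (adjusted p = 0.206), and APOE, another apolipoprotein, stood at 1084 and 1213 against 1921 and 3093 CPM (1.21 ± 0.39, adjusted p = 0.268). Over the epiblast genes outside the rule (6 tested, none above, 2 below, where 25.6% of all genes were below) the median was -0.20, over the 5 endoderm genes 0.37, over the 4 amnion genes 0.07 and over the 4 early mesoderm genes -1.49. Without wild-type library 1 these were 0.84, 0.99, 0.34 and -0.94, and without wild-type library 2 -0.54, 0.04, -0.52 and -1.66.

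Whether the mutant effect differed between mesenchyme and trophoblast cells of the same 4 libraries was tested directly, over 13692 genes. No gene passed in edgeR (0% of the genes tested; 994 had an unadjusted p under 0.05, and the smallest adjusted p was 0.154), and DESeq2 called 139. In trophoblast cells alone (12265 cells) edgeR called 0 of 13886 genes, with 1699 at an unadjusted p under 0.05. The 12 named genes were chosen on their difference in mesenchyme, so that a smaller one in trophoblast is favoured by the choice, and their values in both classes are given as a description. The difference was 5.05 ± 0.69 for SPON2 (adjusted p = 0.249, edgeR), with 0.299 and 0.272 CPM in wild-type and 0.26 and 0.219 CPM in mutant trophoblast cells. It was 4.34 ± 0.62 for STC2 (adjusted p = 0.249, edgeR), with 22.4 and 20.7 CPM in wild-type and 29.8 and 16.4 CPM in mutant trophoblast cells.

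The list medians stand side by side here, at 1.02 in mesenchyme and 1.14 in trophoblast cells for the collagens, 0.86 and 0.82 for collagen processing, 0.91 and 0.61 for other matrix genes and 2.44 and 2.09 for secreted factors. They were 0.90 and 1.06 for immediate early genes, -0.68 and -0.43 for the cell cycle, 0.98 and 0.20 for contractile genes and 1.63 and -0.52 for metallothioneins. Whether a list's median differed between the classes was not tested. DLK1 stood higher in mutant trophoblast cells too, at 0.118 and 0.0388 CPM in wild-type and 5.22 and 10.6 CPM in mutant trophoblast cells, a log2 fold change of 6.35 ± 0.73 there (adjusted p = 0.294, edgeR), and the difference between the classes was 1.64 ± 0.69 (adjusted p = 0.702, edgeR). SPAG4 had the smallest difference, 0.06 ± 0.49 (adjusted p = 0.989, edgeR), with 4.79 and 2.21 CPM in wild-type and 37.6 and 38.2 CPM in mutant trophoblast cells. DDIT4 of the hypoxia list did not show this order in trophoblast and differed by 4.47 ± 0.68 (adjusted p = 0.249, edgeR), standing at 114 and 61.8 CPM in wild-type and 63.3 and 49.8 CPM in mutant trophoblast cells.

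**Figure D5:**
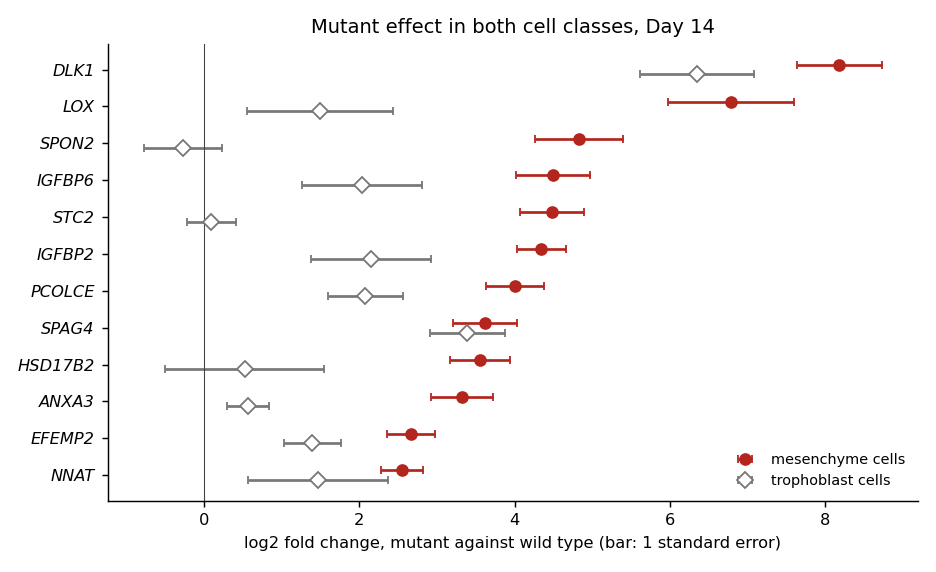
Log2 fold changes of the 12 named genes (mutant against wild type, Day 14) in mesenchyme cells (filled circles) and in trophoblast cells of the same libraries (open diamonds), with bars of 1 standard error. The genes were chosen on the circles, and each class was fitted alone. In the joint fit of both classes the difference was 5.05 for SPON2 and 0.06 for SPAG4, which need not equal the plotted distance.

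The named genes were also read in the mesenchyme of Day 12 embryos, a comparison added after the Day 14 results were seen. Members by the same rule numbered 190 in 1 wild-type library (the other held 0 of its 325 cells, which allows up to 0.923%) and 796 and 1375 in the mutant libraries, that is 19.4% against 13.2% and 23.5% of the cells. No gene passed in edgeR at Day 12 (0% of 13027; 1416 at an unadjusted p under 0.05), nor in the difference between the days (0%; 1220 at an unadjusted p under 0.05, smallest adjusted p 0.172). A single wild-type library stands for its group here and is taken to vary like the others. In 10 of the 12 genes both mutant libraries were above the wild-type one, as in 37.5% of all genes tested at Day 12. DLK1, chosen on its Day 14 difference, stood at 0.986 CPM in the wild-type library and 1.15 and 2.27 CPM in the mutant ones, and the mutant effect was 7.28 larger at Day 14 on the log2 scale (edgeR adjusted p = 0.456).

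IGFBP2 stood at 11.1 CPM in the wild-type library and 18.9 and 97.2 CPM in the mutant ones. PCOLCE stood at 5.91 CPM in the wild-type library and 12.2 and 76.6 CPM in the mutant ones. For both, mutant library 2 of Day 12, from 1 embryo, was far above the rest. Mutant library 1 of Day 12 came from 3 embryos and the wild-type library from 2. IGFBP6 (4.51 CPM in the wild-type library and 2.23 and 6.74 CPM in the mutant ones) and ANXA3 (15.9 CPM in the wild-type library and 12.4 and 5.56 CPM in the mutant ones) were the 2 whose mutant libraries did not both exceed the wild-type one. For TPM1 the order at Day 12 was the reverse of that at Day 14, with 631 CPM in the wild-type library and 298 and 351 CPM in the mutant ones, and the difference between the days, 3.72, had an edgeR adjusted p of 0.172. DMRTB1 was lower in mutants on both days, with 54.1 CPM in the wild-type library and 2.8 and 1.25 CPM in the mutant ones at Day 12 (log2 fold change -4.72, edgeR adjusted p = 0.302). The medians at Day 12 were 1.10 for the hypoxia and glycolysis list, 0.21 for the cell cycle and -0.15 for the collagens, against 0.05 over all genes.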

How the data were processed

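Single cells of cultured cynomolgus embryos were sequenced as 3′ droplet libraries (11 in the series, 4 of Day 14). The authors deposited UMI counts per gene and cell after Cell Ranger 3.1.0 (version from the submitters' processing notes), filters on mitochondrial share and gene number, and SoupX, which removes free RNA estimated from choriogonadotropin in POU5F1-positive cells. The corrected matrix was deposited by the authors as estimated counts (UMIs less the free RNA that SoupX assigns), all whole numbers, for 19367 genes in 33330 cells. The matrix deposited before correction, an alternative here, held raw counts in 33539 cells.

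UMIs were summed over the members of each library and given as CPM of the sum. The sums were tested in edgeR 4.0.16 (R 4.3.3; TMM scaling, filterByExpr, quasi-likelihood F test, Benjamini-Hochberg adjustment), with DESeq2 1.42.0 as an alternative. The steps were run on simulated data. Of 50 genes set to a log2 change of 2, 66% were recovered in the mesenchyme comparison, against 96% to 100% at changes of 3 to 5. For the difference between cell classes 58% were recovered at 2 and 90% to 94% at 3 to 5. Unchanged genes called numbered 5 and 13 in these comparisons. The simulation gave every gene the same spread and no library standing apart, so its recovery does not describe the libraries used here. Trophoblast cells were those whose trophoblast score was highest. The difference between cell classes was an interaction term with library as a block. Doublets were marked by Scrublet (scanpy 1.11.5; Python 3.11.15) and kept, being left out in an alternative. Depth per library is given with the members, and intervals cover counting error only. The depth behind a value is the sum of UMIs over a library's members.

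Named are ISL1, the 25 rule genes, called genes with a symbol, and up to 4 genes a list by smallest p. The following fall outside that rule and were chosen after their values were seen: IGFBP3, IGFBP4, IGFBP5, STC1, EPO, GDNF, FGF11, SERPINH1, PPIB, COL4A1, COL4A2, FN1, LUM, CTHRC1, SBSPON, BNIP3, PFKFB4, GAPDH, PKM, MKI67, HOXA10, HOXA11, DMRTB1 and FABP5, and the 2 genes given by identifier. The members and the gene lists were chosen with earlier results of these data known. Symbols were taken by name only from the study's gene tables, which pair 1019 identifiers with a symbol. Groups follow the genotype and day in the labels. The Day 14 embryos of both genotypes were collected in 2 batches, and the labels number batches within each genotype. Whether equal numbers mark a shared batch is not given in the sources used here, so the main comparison had no block and the blocked counts stand beside it.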

Additional observations from a re-analysis of the deposited data

How the results depend on the processing

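With 2 libraries a group the number of calls moved with most settings. All 12 named genes kept their direction in the 15 alternatives, which the rule for naming them favours. The 29 calls (28 higher and 1 lower in the mutants) became 432 (360 and 72) in DESeq2, 17 (16 and 1) with DESeq2 size factors in edgeR, 472 (416 and 56) with no filter on low counts, 46 (45 and 1) with a score margin of 0.5, 58 (55 and 3) without the marked doublets, 66 (63 and 3) with sums thinned to the smallest one, 16 (15 and 1) with the Day 12 libraries in the fit, and 14 (14 and 0) in members with no CGA UMI, an alternative chosen after the data were seen. A minimum of 5 mesenchyme genes gave 21 higher and 0 lower, the matrix before free RNA removal 27, and a threshold of 1% gave 0, with 0 higher and 0 lower. Leaving out each library in turn gave 31 to 64 calls, 24 to 61 of them higher and 2 to 9 lower, the most without mutant library 1. With the batch number as a replicate block there were 121 calls (111 and 10). The difference between replicate 1 and 2 correlated at 0.144 over 11952 genes between the genotypes, and 2 pairs do not decide whether equal batch numbers pair the samples. The difference between mesenchyme and trophoblast gave 0 calls in edgeR (994 genes at an unadjusted p under 0.05), 139 in DESeq2 and 0 to 16 with a library left out, 16 without mutant library 1 and 11 without mutant library 2. The cause of these shifts was not tested. Depth limits genes with few UMIs: 3 counts in a library are 0.103 to 0.394 CPM. DESeq2 size factors moved the median log2 fold change of all genes from 0.04 to 0.01.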

Other observations

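Mesenchyme cells by the same rule were also found in the Day 10 mutant library, 47 of its 769 cells, and in neither Day 10 wild-type library (0 of 658 and 0 of 670 cells). Most lay near the limit of the rule: 32 of the 47 (68.1%) had a mesenchyme score less than 0.5 above the next score, and a margin of 0.5 left 1.95% of the library in place of 6.11%. In these 47 cells HAND1 stood at 1516 CPM, COL1A1 at 154 CPM, COL3A1 at 80.0 CPM, HGF at 400 CPM and ISL1 at 25.5 CPM. DLK1 stood at 1.30 CPM, IGFBP2 at 22.1 CPM and PCOLCE at 4.47 CPM there. With no members in the wild-type libraries of that day these levels allow no comparison, and the difference in share was not tested.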
